A study of Homo sapiens with 12 samples.

Results

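The 43 genes described here are human genes of lysosomal degradation and autophagy. They comprise 8 lysosomal proteases, 12 glycosidases, sulfatases and lipid hydrolases, 7 membrane and lipid transfer proteins, the transcription factors TFEB and TFE3, both DRAM proteins, 6 genes of autophagy initiation and 6 genes of ATG8 conjugation and cargo selection. A gene was included where its symbol was one of these 43 names in both deposited tables. All 43 were found, among 25914 listed genes.

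The study sequenced RNA from HCT116, a colon cancer cell line, and from RPE-1 hTERT, a noncancerous retinal pigment epithelium line immortalized with telomerase. Both are labelled wild-type. Each line was treated for 24 h with 10 µM Nutlin-3a, which blocks MDM2 from binding p53, or with DMSO as solvent control, and each of these 4 groups has 3 libraries.

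The deposited tables hold the authors' own comparison of the treatments and 1 level per gene, the base mean. The base mean is a count divided by the size factor of its library and averaged over libraries. It was identical in both tables for all 25914 genes, so it is a pooled level that belongs to neither line and to neither treatment. No value per library was available, and which libraries were averaged is not given in the sources used here. The results are therefore levels with no spread and no replicate check. The response of these genes to Nutlin-3a is not analysed here, neither line could be checked against its markers, and the depth per library is unknown.

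Lysosomes are acidic organelles in which hydrolases break down proteins, glycans and lipids. Autophagy delivers cytoplasmic material to them. A membrane is nucleated by the ULK1 and BECN1 complexes, coated with lipid-conjugated ATG8 proteins, closed around its cargo and fused with a lysosome. TFEB and TFE3 bind E-box motifs in the promoters of many lysosomal genes and activate them, and DRAM1 is a known p53 target that encodes a lysosomal membrane protein.

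The E-box reads CACGTG and is the same on both strands. Its longer form in lysosomal promoters contains the palindrome TCACGTGA, which includes CACGTG. Both were searched in the 300 bases from 250 before to 50 after the RefSeq gene start (GRCh38.p14), which were available for 35 of the 43 genes. CACGTG was present in 8 of the 35 promoters (22.9%), compared with 7.43% of 27305 promoters in all. TCACGTGA was present in 5 of the 35 (14.3%), compared with 1.04% of all promoters. Among the 12397 promoters of listed genes with a base mean of at least 10, the shares were 9.78% and 1.70%. These are descriptions of sequence, with no test, and a match is not a bound site. The promoters compared were not matched for GC content, which was higher in the members (given below).

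The 5 promoters with the longer form are shown because a copy begins within 60 bases before the start in each. The windows have 30 bases, read 5′ to 3′ on the strand of the gene, and capitals mark TCACGTGA.
LAMP1, chr13:113297199-113297228, plus strand: gacccgcgggaTCACGTGAcgcccgggcgc
LAMP1, chr13:113297226-113297255, plus strand: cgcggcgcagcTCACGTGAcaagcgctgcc
CTSA, chr20:45891298-45891327, plus strand: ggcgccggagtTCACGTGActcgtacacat
GAA, chr17:80101493-80101522, plus strand: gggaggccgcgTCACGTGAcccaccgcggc
GAA, chr17:80101538-80101567, plus strand: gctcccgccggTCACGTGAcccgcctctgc
MCOLN1, chr19:7522571-7522600, plus strand: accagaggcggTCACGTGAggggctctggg
MCOLN1, chr19:7522598-7522627, plus strand: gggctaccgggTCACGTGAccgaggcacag
CLN3, chr16:28492058-28492087, minus strand: cgcgggtgctgTCACGTGAtccgacaaacg

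The other 3 genes, with CACGTG only, are shown for comparison, with capitals marking CACGTG.
CTSD, chr11:1763957-1763986, minus strand: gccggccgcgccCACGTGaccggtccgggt
CTSF, chr11:66568640-66568669, minus strand: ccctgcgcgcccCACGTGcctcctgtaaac
NEU1, chr6:31862930-31862959, minus strand: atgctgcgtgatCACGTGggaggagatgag

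The 8 promoters held 18 copies of CACGTG, of which 11, in 7 genes, began within 60 bases before the start. LAMP1, which encodes an abundant glycoprotein of the lysosomal membrane, had 6 copies. Of these, 4 began 192, 176, 159 and 142 bases before the start and 2 were part of the longer form. CTSA, CTSF, GAA, MCOLN1 and CLN3 had 2 copies each, and CTSD and NEU1 had 1 each. In NEU1 the copy began 126 bases before the start.

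**Figure D1:**
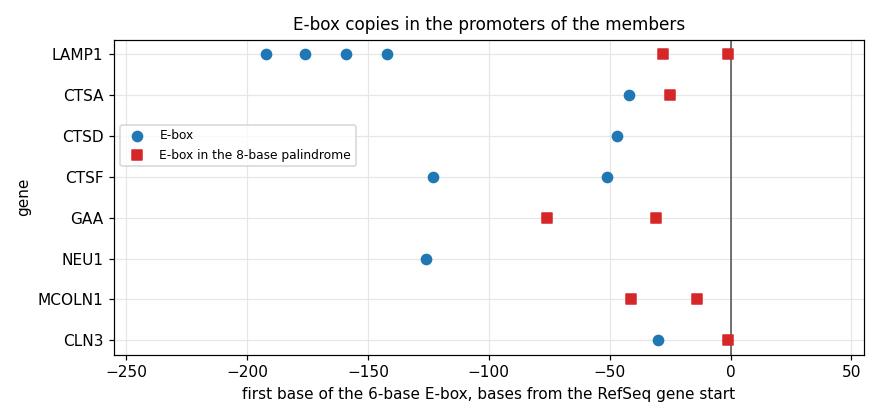
Positions of CACGTG in the promoters of 8 lysosomal genes. The x axis gives the first base of the motif in bases from the RefSeq gene start, each point is 1 copy, and squares mark copies inside TCACGTGA. LAMP1 has 6 copies, and 11 of the 18 copies lie within 60 bases before the start.

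All 8 promoters with a motif belonged to lysosomal enzymes and membrane proteins. These were 3 of 7 proteases, 2 of 7 glycosidases, sulfatases and lipid hydrolases, and 3 of 5 membrane and lipid transfer proteins with a promoter sequence. CACGTG was in 0 of the 6 promoters of autophagy initiation genes, in 0 of the 6 of ATG8 conjugation and cargo selection, in 0 of the 2 of TFEB and TFE3, and in 0 of the 2 of the DRAM genes. Whether the lists differ was not tested. Only 1 RefSeq start per gene was searched, which need not be its most used start, so motifs at other starts were not counted. In other genes of these pathways, CACGTG was in 3 of 11 promoters of V-ATPase subunits, the pump that acidifies the lysosome (ATP6V0B, ATP6V0D1 and ATP6V1G1), and in 3 of 16 of other lysosomal genes (GALNS, DPP7 and CD63). It was also in 2 of 19 promoters of other core autophagy genes (ATG3 and ATG14) and in 1 of 7 of other autophagy receptors (BNIP3).

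Members with CACGTG had a median base mean of 2636 (range 32.5 to 10594, n = 8) and members without it one of 1539 (range 190.4 to 16905, n = 27). The ranges overlap, and no test was made. Neither group holds the members with no promoter sequence, PSAP, CTSB, LAMP2, HEXA, ASAH1, SGSH, ARSA and NAGLU. PSAP (42504) and CTSB (18485) have the highest base means of all members, so these medians do not describe the full set. They are also not corrected for length. The median GC content of the promoters was 69.0% for the members and 58.3% for all promoters.

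The members were mostly well expressed in the pooled libraries. Their median base mean was 1805, whereas that of all listed genes was 149.8 and that of the 15758 listed protein-coding genes 650.6. Of the 43 members, 42 lay above the median of all genes and 33 above that of protein-coding genes. In all, 32 members had a base mean of at least 1000, and 12 were in the top 10% of listed genes. The members' levels ranged from 32.5 to 42504. They summed to 0.548% of the base means of all genes, and the 5 highest members made up 59.0% of the members' sum.

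The member with the highest base mean was PSAP (ENSG00000197746, chromosome 10, 71816298 to 71851251), the precursor of the saposins that help hydrolases reach their lipids, at 42504. It ranked 35 among all listed genes. The protease CTSB (ENSG00000164733, chromosome 8, 11842524 to 11869533) followed at 18485. SQSTM1 (ENSG00000161011, chromosome 5, 179806398 to 179838078), the p62 receptor that brings ubiquitinated cargo to autophagosomes, stood at 16905. The aspartic protease CTSD (ENSG00000117984, chromosome 11, 1752752 to 1764573) stood at 10594 and LAMP1 (ENSG00000185896, chromosome 13, 113297239 to 113323672) at 8806.

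At the other end was CLN3 (ENSG00000188603, chromosome 16, 28474111 to 28495575), a lysosomal membrane protein lost in a childhood neurodegenerative disease, with a base mean of 32.5. ATG10 (ENSG00000152348, chromosome 5, 81972023 to 82276857), an E2-like enzyme that joins ATG12 to ATG5, had 190.4. TFEB (ENSG00000112561, chromosome 6, 41683978 to 41736259) had 277.4. The lysosomal calcium channel MCOLN1 (ENSG00000090674, chromosome 19, 7522624 to 7534009) had 280.5. ATG4A (ENSG00000101844, chromosome X, 108091668 to 108154671), a protease that processes ATG8 proteins, had 366.8. The other members at or below the protein-coding median were CTSF at 368.0, ULK2 at 431.0, DRAM2 at 530.2, NAGLU at 608.4 and ARSA at 643.9.

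For CLN3, 25.3% of the exon bases in GENCODE 44, a later annotation than that of the authors, are shared with another protein-coding gene on the same strand (ENSG00000261832) that the tables do not list. A V-ATPase subunit, ATP6V0C, had a base mean of 10.8 and shares 76.3% of its exon bases with 2 genes on its strand, ENSG00000260272 and ENSG00000259784, which are not listed either. The part of shared exons in these low values was not tested, and both levels are uncertain. Among the members, 9 share exon bases with another gene on the same strand. The share among all listed genes was not computed, so whether this count is unusual is unknown. The largest shares were in ATG9A (38.8%, with ENSG00000284820, base mean 4.77) and CTSD (27.3%, in part with ENSG00000250644, base mean 64.2).

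**Figure D2:**
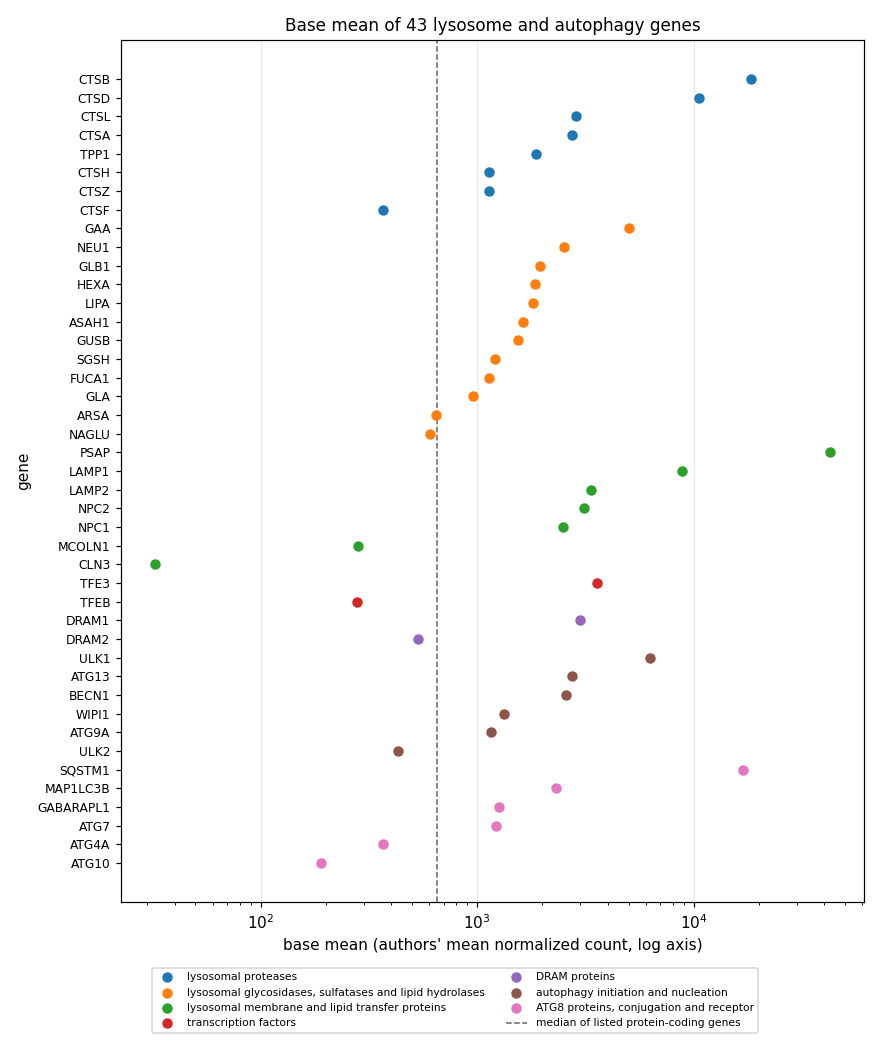
Base mean of each of the 43 members, the authors' mean normalized count, on a log axis. Colours mark the gene lists and the dashed line is the median of listed protein-coding genes, 650.6. PSAP is highest at 42504 and CLN3 lowest at 32.5.

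As long transcripts collect more reads, levels of different genes were compared per kilobase of merged annotated exons (GENCODE 44). The merged exons of the members span 2.04 to 19.4 kb, with a median of 5.70 kb. The median base mean per kilobase was 317.1 for the members, 120.3 for listed protein-coding genes and 51.3 for the 25836 listed genes with a length. Again 33 members lay above the protein-coding median. The order of the members by base mean and by base mean per kilobase had a Spearman's rho of 0.888 over 43 genes, which share the base mean itself, and 13 members moved by more than 5 places. The length used matters for this order. With coding length in place of merged exons, 14 members changed place by more than 5. Values under the longest annotated transcript and the longest coding length are therefore given for the related pairs and some other genes. Orders given below with merged exons only can change with the length used.

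Among the proteases, CTSD had 1860 and CTSB 1755 per kilobase. Their order depended on the length, as CTSB had 4430 and CTSD 2403 with the longest transcript, and 16608 and 7830 with coding length. CTSL, a cysteine protease, had 466.7 per kilobase. The carboxypeptidase CTSA, which also protects other lysosomal enzymes, had 318.5, and the tripeptidyl peptidase TPP1 had 288.5. CTSF had 86.6, CTSH 82.3 and CTSZ 58.3 per kilobase of merged exons. With coding length CTSF was lowest at 242.9, whereas CTSZ (1127) lay next to TPP1 (1110).

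The glycosidases, sulfatases and lipid hydrolases had base means from 608.4 for NAGLU, which cleaves heparan sulfate, to 5037 for GAA, the acid glucosidase that degrades glycogen. GAA had 957.9 per kilobase, the highest in this list with merged exons and with the longest transcript, but with coding length NEU1 (2026) lay above GAA (1764). FUCA1, which removes fucose, had 556.7 per kilobase, place 11 of the 43 members against place 30 by base mean, but place 27 with coding length. The sialidase NEU1 had 523.2 and GLB1, the lysosomal beta-galactosidase, 452.3 per kilobase. GUSB, the beta-glucuronidase, had 395.4 and LIPA, the acid lipase, 369.0. HEXA, a hexosaminidase subunit, had 116.4 per kilobase, place 34 against 21 by base mean, and was at 21 again with coding length. The acid ceramidase ASAH1 had 105.4, place 35 against 23, and was at 20 with coding length. The others, NAGLU, SGSH, GLA and ARSA, had 207.3, 180.6, 154.8 and 143.1 per kilobase. With coding length SGSH was the highest of these at 798.6 and NAGLU the lowest at 272.9.

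Of the membrane and lipid transfer proteins, PSAP had 13645 per kilobase and CLN3 3.31, and these were also the extremes of all 43 members. NPC2 and NPC1 hand cholesterol from the lysosomal lumen to its membrane. The soluble NPC2 had 1200 per kilobase and the membrane protein NPC1 256.5. LAMP1 had 1534 per kilobase and LAMP2, a related membrane protein with several splice forms, had 317.1. LAMP1 was thus 4.84-fold higher with merged exons, 3.26-fold with the longest transcript and 2.84-fold with coding length. MCOLN1 had 70.9.

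The transcription factors differed in level. TFE3 (ENSG00000068323) had a base mean of 3584 and 851.9 per kilobase. TFEB had 41.3 per kilobase. In the pooled libraries TFE3 was 20.6-fold higher with merged exons, 14.2-fold with the longest transcript and 11-fold with coding length. The DRAM genes also differed, with base means of 2974 for DRAM1 (ENSG00000136048, chromosome 12, 101877580 to 102012130) and 530.2 for DRAM2 (ENSG00000156171, chromosome 1, 111117163 to 111140203). Per kilobase, DRAM1 had 754.7 and DRAM2 160.9, a ratio of 4.69, which was 3.84 with the longest transcript and 6.27 with coding length. As treated and control libraries may both enter the base mean, the level of the p53 target DRAM1 cannot be taken as its level without Nutlin-3a.

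In autophagy initiation, the kinase ULK1 had 820.4 per kilobase and its relative ULK2 43.7, an 18.8-fold difference that was 24.9-fold with the longest transcript and 14.3-fold with coding length. BECN1, a subunit of the lipid kinase complex that nucleates the membrane, had 401.5 per kilobase. ATG13, a partner of ULK1, had 393.5, and WIPI1, which binds the phosphoinositide made there, had 390.6. Their levels with coding length were 1908, 1670 and 993.4 in the same order, and with the longest transcript 529.3, 633.6 and 696.7. The lipid scramblase ATG9A had 244.9.

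Of the ATG8 proteins, MAP1LC3B had 460.0 and GABARAPL1 310.6 per kilobase, a ratio of 1.48, which was 1.89 with the longest transcript and 2.15 with coding length. MAP1LC3B has a near-identical copy, MAP1LC3B2, listed at a base mean of 493.1. Reads that match both copies could be split between them, or lost where only unique mappings are kept. Both levels, and the ratio to GABARAPL1, are therefore uncertain. The cargo receptor SQSTM1 had 2243 per kilobase. The processing and conjugation enzymes were lower, with 137.9 for the E1-like ATG7, 125.3 for the protease ATG4A and 35.0 for ATG10.

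**Figure D3:**
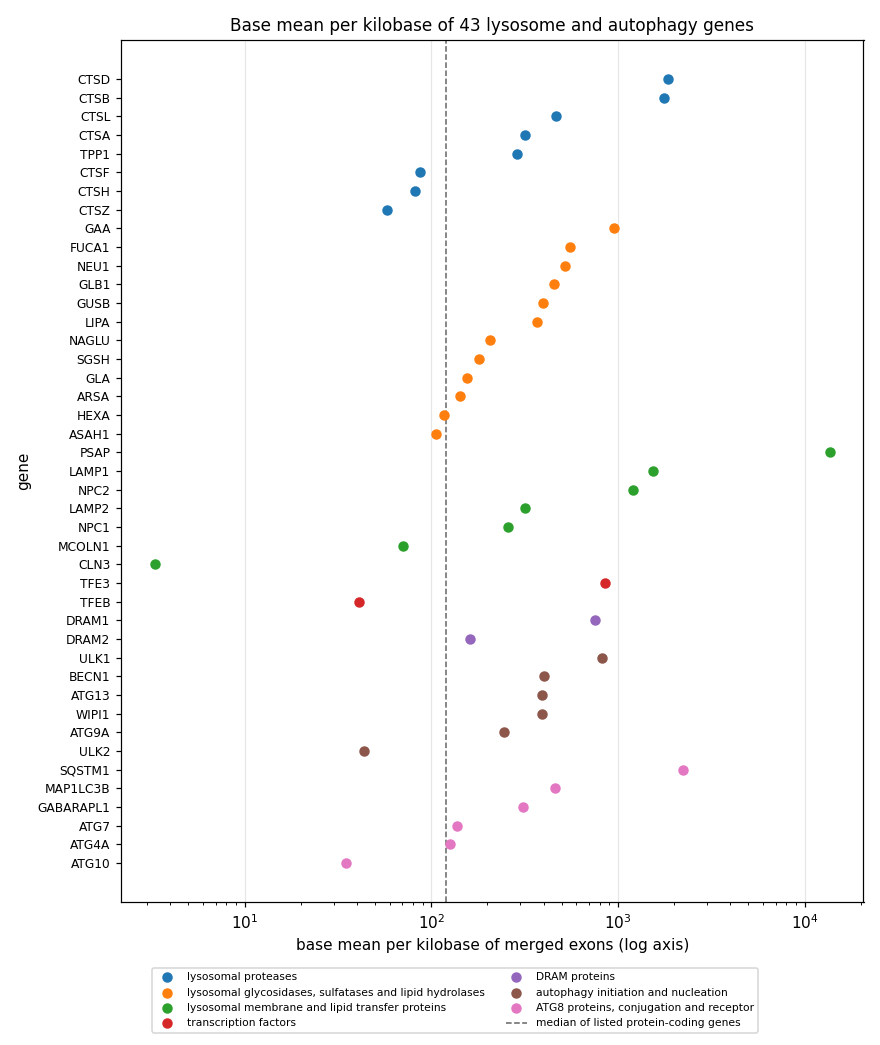
Base mean per kilobase of merged exons for each of the 43 members, on a log axis. Colours mark the gene lists and the dashed line is the median of listed protein-coding genes, 120.3. TFE3 lies above TFEB, ULK1 above ULK2 and DRAM1 above DRAM2.

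Other genes of the same pathways, 73 in all on 4 lists, were set beside the members. All 16 V-ATPase subunits were listed, with a median base mean of 2264 and a highest value of 3868 for ATP6AP1, and 15 lay above the protein-coding median. The exception was ATP6V0C. The 25 other lysosomal genes had a median of 1188, from 89.3 for the protease CTSS to 20339 for the tetraspanin CD63, and 17 lay above the protein-coding median. Of 24 other core autophagy genes, 23 were listed, with a median of 1257 and a range from 234.4 for ATG4C to 14277 for VMP1, and 19 lay above that median. The 8 other receptors had a median of 3141, from 432.2 for FUNDC1 to 5055 for NBR1, and 7 lay above it. These levels are not corrected for length. Per kilobase of merged exons the median was 454.2 for V-ATPase subunits and 374.1 for the other receptors. It was 280.6 for the other core autophagy genes and 211.2 for the other lysosomal genes. In that measure ATP6V1F was the highest V-ATPase subunit and PIK3C3 the lowest core autophagy gene. The receptors then ranged from BNIP3 to BNIP3L.

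As the study concerns promoters that face each other, annotated genes that start on the opposite strand near a member were also counted, from the outer 5′ ends of the genes in GENCODE 44. A convergent start was set at 0 to 2500 bp downstream of the member's start, and a divergent one at up to 400 bp upstream. A convergent neighbour was annotated for 11 of 43 members (25.6%), compared with 17.2% of 15740 listed protein-coding genes, and a divergent one for 5 members (11.6%), compared with 16.5%. No test was made, and an annotated start says nothing about its use in these cells. The class of a neighbour also depends on the start taken for the member. For the 35 members with a RefSeq promoter, the RefSeq start gave a convergent neighbour in 7 (20%, compared with 13.2% of 12415 listed protein-coding genes) and the outer GENCODE end in 8 (22.9%, compared with 17.6%). A divergent neighbour was found for 6 of them from the RefSeq start (17.1%, compared with 19.5%) and for 4 from the outer GENCODE end (11.4%, compared with 17.2%). From the RefSeq start, NEURL2 at CTSA and ISCA2 at NPC2 are divergent rather than convergent, APOBR at CLN3 is past the limit, and IFIT5 at LIPA is convergent. CTSA also gains a convergent neighbour, ENSG00000271984 (2084 bp), and MAP1LC3B gains a divergent one, FBXO31 (194 bp).

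From the outer GENCODE ends, 7 of the 11 convergent neighbours were protein-coding and 4 were long noncoding RNAs, 2 of which were listed. From its outermost annotated start, SQSTM1 faces MGAT4B, a glycosyltransferase gene, whose start lies 554 bp inside SQSTM1 and whose base mean was 6364. Starts further inside SQSTM1 were not examined, and its most used start is unknown here. DRAM2 faces CEPT1 (724 bp, base mean 824.0). HEXA faces HEXA-AS1 (369 bp), listed at 27.8, and ASAH1 faces ASAH1-AS1 (614 bp), listed at 20.4. Among the divergent neighbours, ATG9A starts 66 bp from ANKZF1 (base mean 1286). Of 13 neighbours with a base mean, 4 had a higher one than the member and 9 a lower one, with no correction for length. Counting by strand, as stated in the study's methods, separates such overlapping pairs.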

How the data were processed

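RNA-seq was made from 12 libraries of HCT116 and RPE-1 cells, 3 per line and treatment. The paper's methods state that reads were trimmed and corrected by the authors, who removed ribosomal reads, mapped them with segemehl to hg38 with Ensembl annotation, kept unique mappings and counted exons by strand. The paper does not mention HCT116, so whether these steps hold for that line is not stated there. The submitters' processing notes name Trimmomatic 0.39, cutadapt 3.3, SAMtools 1.12, featureCounts 2.0.1 and DESeq2 1.32.0. For cutadapt, featureCounts and DESeq2 the paper gives other versions. The labels describe ribosomal RNA depletion, whereas the methods describe poly(A) selection.

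The signal values deposited by the authors are base means, mean normalized counts over pooled libraries. The tables also hold the authors' own comparison of Nutlin-3a with DMSO (log2 fold change, standard error, test statistic, p-value and adjusted p-value). These columns were not used. The planned test within each line needs counts per library and was not run, so no groups were compared. Without them, depth and precision are unknown.

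The members and lists were chosen with earlier results of these data known. Genes were joined by identifier to GENCODE 44 (25836 of 25914 found) on the same build, and 35 of 43 members by symbol to RefSeq promoters (1 per symbol). Exons of all transcripts of a gene were merged for its length. The rule for named genes took the 5 highest and 5 lowest members, the transcription factors, DRAM genes and related pairs, and the extremes of each list. The other members were named to account for all. The search for neighbouring starts and the check of shared exons were added after the data were examined. Motif search and exon merging were tested on simulated data. Python 3.11.15, numpy 2.4.6, pandas 2.3.3 and matplotlib 3.10.9 were used.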

Additional observations from a re-analysis of the deposited data

How the results depend on the processing

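The members' median base mean was 12.1-fold the median of all listed genes. It was 2.77-fold that of protein-coding genes only, and 4.88-fold that of genes with a base mean of at least 10. The members' median base mean per kilobase was 317.1 with merged exons, 515.7 with the longest annotated transcript and 1127 with the longest annotated coding length, the last of which was chosen after seeing the data. Shorter lengths raise these values by construction. Compared with merged exons, 5 members changed place by more than 5 with the longest transcript and 14 with coding length. With the RefSeq start in place of the outer GENCODE end, also chosen after seeing the data, the count of members with a convergent neighbour was 7 in place of 8 and with a divergent one 6 in place of 4, among the 35 with a promoter sequence. Among 12415 listed protein-coding genes, the share with a convergent neighbour was 13.2% in place of 17.6%. The share with a divergent one was 19.5% in place of 17.2%. The motif was in 8 members as CACGTG and in 5 as TCACGTGA, which is the longer form. Promoters with CACGTG made up 7.43% of all promoters and 9.78% of those of genes with a base mean of at least 10.

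Coding length from RefSeq proteins was planned and not run, since no protein table was at hand. No paired analysis was possible because the tables hold no values per library, and for the same reason no replicate was left out. With no values per library, differences in level between genes cannot be set against replicate error.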
